A study of Drosophila melanogaster with 4 samples.

Results

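Genes that make, break down and carry glutamate and GABA (gamma-aminobutyric acid) were examined in heads of male Drosophila melanogaster fed sodium valproate (NaVP), against heads of males kept on normal food. Sodium valproate is an antiepileptic drug and mood stabiliser. The members are the 7 genes Gs1, Gs2, Gdh, Gad1, Gabat, slgA and dmGlut, chosen by symbol as part of the GABA and glutamate cycle that valproate is known to affect. They stand among 6775 named genes on the array, and all 7 were among the 524 named genes with a value on at least 3 of the 4 arrays. The members were chosen with earlier results of these data known. That all were measured, and how many were called, is therefore no evidence about this class of genes. The members had 9 cDNA clones on the array. Of these, 5 had a value on all 4 arrays and 3 on 3 arrays, and a second Gad1 clone was listed on none.

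The NaVP group consisted of unmated wild-type Oregon-R males that ate food with 0.33 mg/ml NaVP for 3 days. The normal-food group consisted of unmated Oregon-R males of the same age, moved to fresh normal food for the same 3 days. Males of both groups were 10 to 11 days old at the start, were kept at 30 flies per vial and had been sexed under ether. Each of the 4 two-colour arrays set RNA from a pool of NaVP heads against RNA from a pool of normal-food heads, and the design text counts the arrays as biological replicates. On arrays 1 and 2 the NaVP RNA was labelled with Cy5, and on arrays 3 and 4, called the swap arrays, with Cy3. A single dose and a single duration were measured, in whole heads, which hold brain, eyes, antennae, muscle and fat body. Less RNA per cell and fewer cells of a type cannot be told apart in such pools.

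In the insect brain glutamate and GABA are transmitters, and both are also tied to central metabolism. Glial cells take up released glutamate and join it with ammonium to form glutamine, the reaction of glutamine synthetase. Neurons decarboxylate glutamate to GABA, which GABA transaminase later breaks down, returning its carbon to the TCA cycle. Glutamate dehydrogenase links glutamate with 2-oxoglutarate, and proline oxidase opens the path from proline to glutamate. In mammals valproate is known to inhibit enzymes of GABA breakdown and to raise GABA in the brain.

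Each value below is a log ratio of NaVP over normal food, taken as log2 and centred on the median of its array. The sources used here do not give the log base, which channel was divided by which, or whether the signs of the swap arrays were flipped before deposit. Every mean is therefore given under 2 readings. The first, "swap arrays turned", flips the sign of arrays 3 and 4 and holds if the file lists Cy5 over Cy3. The second, "as deposited", keeps all signs and holds if the file lists the drug over the control throughout. Neither reading could be settled from the labels or the values. Both take arrays 1 and 2 as NaVP over normal food, and all directions below would flip together if those arrays were inverted. The arrays held 2615, 662, 1877 and 1602 clones with a value, and 1030 clones had a value on at least 3. Before centring the array medians were 1.01, 1.05, 0.54 and 0.24. Arrays of the same dye orientation correlated across clones with Pearson's r of 0.55 (arrays 1 and 2) and 0.39 (arrays 3 and 4), and arrays of opposite orientation with r from -0.14 to 0.34 before any turning. The duplicate spots of member clones differed by a median of 0.082 (29 pairs, range 0.002 to 0.432).

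Gs1, the glutamine synthetase of mitochondria, had the largest difference among the members with the swap arrays turned. With NaVP in Cy5 its centred log2 ratio was 0.71 on array 1 and 0.46 on array 2. With NaVP in Cy3 the deposited sign was opposite, at -0.76 on array 3 and -0.56 on array 4. Turned, all 4 values lay above 0, between 0.46 and 0.76. The mean was 0.62 ± 0.14 (SD, n = 4), or 1.54-fold higher in NaVP heads, with a limma 95% interval of 0.35 to 0.90. Its limma p ranked 2 of 1030 clones, but it did not pass after Benjamini-Hochberg adjustment over all clones (limma adjusted p = 0.242). Only 0.0971% of clones (1 of 1030) passed in that test, and 0 of the 8 member clones did. At an unadjusted limma p under 0.05 stood 6.89% of all clones and 1 of the 8 member clones, Gs1.

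In a limma fit with dye orientation as a second coefficient, Gs1 did pass as higher (limma adjusted p = 0.000388), where 3.11% of all clones passed and 1 of the 8 member clones did. That p rests mostly on a spread pooled over clones, with 76.4 prior degrees of freedom. Turning the swap arrays only exchanges the coefficients of that fit. The 0.62 of Gs1 is thus its NaVP term with the swap arrays turned and its dye term as deposited. Gs1 also passed when clones with 3 or more values were averaged per gene and named genes alone were fitted (limma adjusted p = 0.0106). In that fit, chosen after seeing the data, 5 of 524 genes passed with the swap arrays turned. With unnamed clones kept in a fit of gene means, Gs1 did not pass (limma adjusted p = 0.252). Without centring its mean was 0.94 ± 0.78 (SD, n = 4; limma adjusted p = 0.99972). As deposited, the values of opposite sign cancelled, and the mean was -0.037 ± 0.73 (SD, n = 4; limma adjusted p = 0.974). An exact two-sided sign-flip test of 4 arrays cannot go below p = 0.125, the value that Gs1 gave with the swap arrays turned.

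**Figure D1:**
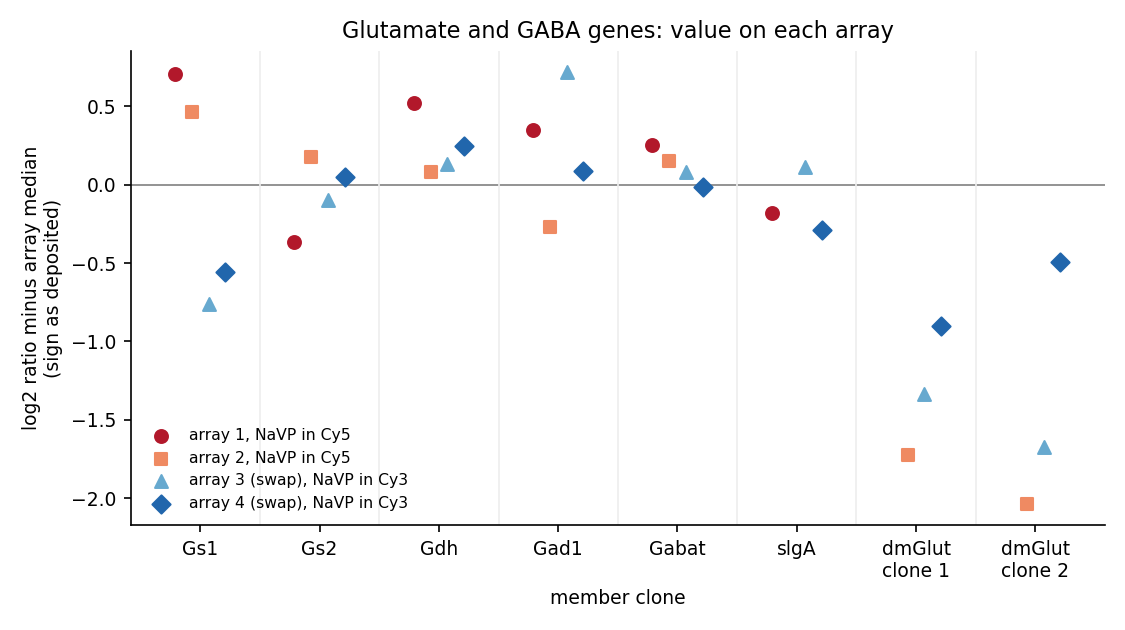
Centred log2 ratio (vertical axis, sign as deposited) of each member clone (horizontal axis) on each array; circles and squares are arrays 1 and 2 with NaVP in Cy5, triangles and diamonds are swap arrays 3 and 4 with NaVP in Cy3. The Gs1 values of the 2 dye orientations lie on opposite sides of 0, and the values of both dmGlut clones, which have none on array 1, all lie below 0.

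Gs2, the cytosolic glutamine synthetase that glial cells are known for, did not share the pattern of Gs1. Its centred values were -0.36 on array 1, 0.18 on array 2, -0.099 on array 3 and 0.049 on array 4, with the signs as deposited. Each dye orientation held a value above 0 and a value below 0. The mean was -0.035 ± 0.24 in the turned reading and -0.060 ± 0.23 as deposited (SD, n = 4 for each), and neither passed (limma adjusted p = 0.982 and 0.877). The limma 95% interval with the swap arrays turned ran from -0.33 to 0.26. Gs1 minus Gs2, taken within each array with the swap arrays turned, was 1.07, 0.29, 0.67 and 0.61. It lay above 0 on 4 of 4 arrays, with a mean of 0.66 ± 0.32 (SD, n = 4; exact two-sided sign-flip p = 0.125, the smallest that 4 arrays allow). As deposited the mean of this difference was 0.022 ± 0.82 (SD, n = 4; exact two-sided sign-flip p = 1).

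Gdh encodes glutamate dehydrogenase, the mitochondrial enzyme that turns glutamate into 2-oxoglutarate and ammonium. Its centred values as deposited were 0.52, 0.079, 0.13 and 0.25 on arrays 1 to 4, all above 0. The mean was 0.25 ± 0.20 as deposited (SD, n = 4; limma adjusted p = 0.393), with a limma 95% interval of -0.027 to 0.52. Turned, the 2 orientations lay on opposite sides of 0 and the mean was 0.055 ± 0.34 (SD, n = 4; limma adjusted p = 0.967). Duplicate Gdh spots agreed within 0.049 on every array, so that the spread between arrays exceeded that between spots.

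Gad1 encodes glutamate decarboxylase, which forms GABA from glutamate in neurons. Its centred values were 0.35, -0.27, 0.72 and 0.086 on arrays 1 to 4 as deposited. The 2 arrays with NaVP in Cy5 differed in sign from each other. The mean was -0.18 ± 0.44 in the turned reading and 0.22 ± 0.42 as deposited (SD, n = 4 for each), with limma adjusted p = 0.827 and 0.539. The difference from 0 was thus smaller than the spread between arrays under both readings.

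Gabat encodes GABA transaminase, the enzyme that begins the breakdown of GABA and is a known target of valproate in mammals. Its centred values as deposited were 0.25, 0.15, 0.083 and -0.013. The mean was 0.084 ± 0.15 in the turned reading and 0.12 ± 0.11 as deposited (SD, n = 4 for each), and neither passed (limma adjusted p = 0.912 and 0.682). The limma 95% interval ran from -0.19 to 0.36 with the swap arrays turned and from -0.14 to 0.38 as deposited.

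slgA encodes proline oxidase, the mitochondrial enzyme of the first step from proline towards glutamate. It had no value on array 2, and its centred values as deposited were -0.18 on array 1, 0.11 on array 3 and -0.29 on array 4. The mean was -0.00075 ± 0.25 in the turned reading and -0.12 ± 0.21 as deposited (SD, n = 3 for each), with limma adjusted p = 0.999 and 0.747. Its duplicate spots differed by 0.432 on array 4 and 0.312 on array 1, the widest and the fourth widest gaps among the 29 member pairs.

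dmGlut encodes a glutamate transporter and was lower in NaVP heads under the reading as deposited. Both of its clones lay below 0 on the 3 arrays that measured them, and neither had a value on array 1. Clone 1 had centred values of -1.73 on array 2, -1.34 on array 3 and -0.90 on array 4. Clone 2 had -2.04, -1.67 and -0.49 on the same arrays. As deposited, clone 1 averaged -1.32 ± 0.41 (SD, n = 3), a 2.50-fold difference that passed (limma adjusted p = 0.00192). Clone 2 averaged -1.40 ± 0.81 (SD, n = 3), a 2.64-fold difference that also passed (limma adjusted p = 0.0155). The limma 95% intervals were -1.69 to -0.95 and -1.92 to -0.88. These were 2 of the 8 clones called among 1030 (0.777%), all 8 lower, and 2 of the 8 member clones. The same 2 were the member clones at an unadjusted limma p under 0.05, where 14.1% of all clones stood. Both clones are assigned to the same gene and were hybridised with the same RNA, so they are repeat measurements and not replicates of the treatment. For each clone as deposited, an exact two-sided sign-flip test gave p = 0.25, the smallest that 3 arrays allow. The limma p-values of both also draw on a variance estimated from all clones together, with 9.87 prior degrees of freedom.

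The dmGlut values stood on both sides of 0 once the swap arrays were turned. Clone 1 then had -1.73 on array 2, and 1.34 and 0.90 on arrays 3 and 4, averaging 0.17 ± 1.66 (SD, n = 3; limma adjusted p = 0.967). Clone 2 had -2.04, 1.67 and 0.49, averaging 0.042 ± 1.89 (SD, n = 3; limma adjusted p = 0.994). These SDs were far above the median of 0.25 over all tested clones in that reading. The orientation with NaVP in Cy5 rests on array 2 alone for both clones, so the plain mean of 3 arrays weights the orientations unequally. With dye orientation as a second coefficient, the turned means became -0.30 and -0.48, and those as deposited -1.42 and -1.56. Turning the swap arrays only exchanges the coefficients of that fit. The values -1.42 and -1.56 are thus also its dye terms in the turned reading, and -0.30 and -0.48 its dye terms as deposited. With 3 values and 1 array in the Cy5 orientation, each clone had 1 residual degree of freedom there. Its p-values rest almost wholly on the 76.4 prior degrees of freedom pooled over clones and are not given here.

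The absence of array 1 was uncommon. Of 472 clones with values on arrays 2, 3 and 4, 19 lacked one on array 1, although array 1 listed more clones than any other. By their mean over arrays 2, 3 and 4 as deposited, dmGlut clone 2 and clone 1 ranked 2 and 3 from the lowest of the 472. They also ranked 2 and 3 among the 19 without array 1, so the only clone below them lacked array 1 as well. Before centring, the values of clone 1 were -0.68, -0.80 and -0.66 on arrays 2, 3 and 4, and those of clone 2 were -0.99, -1.13 and -0.25. Clone 1 thus varied less before centring (SD 0.074) than after it (SD 0.41), while the medians of those arrays spanned 0.24 to 1.05. Without centring, the fit gave clone 1 a mean of -0.71 and clone 2 a mean of -0.79 as deposited (limma adjusted p = 0.0231 and 0.0132). In that fit 745 of 1030 clones passed, 740 of them higher. Without array 3 both calls were lost (limma adjusted p = 0.0896 and 0.163), with means of -1.31 and -1.26.

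**Figure D2:**
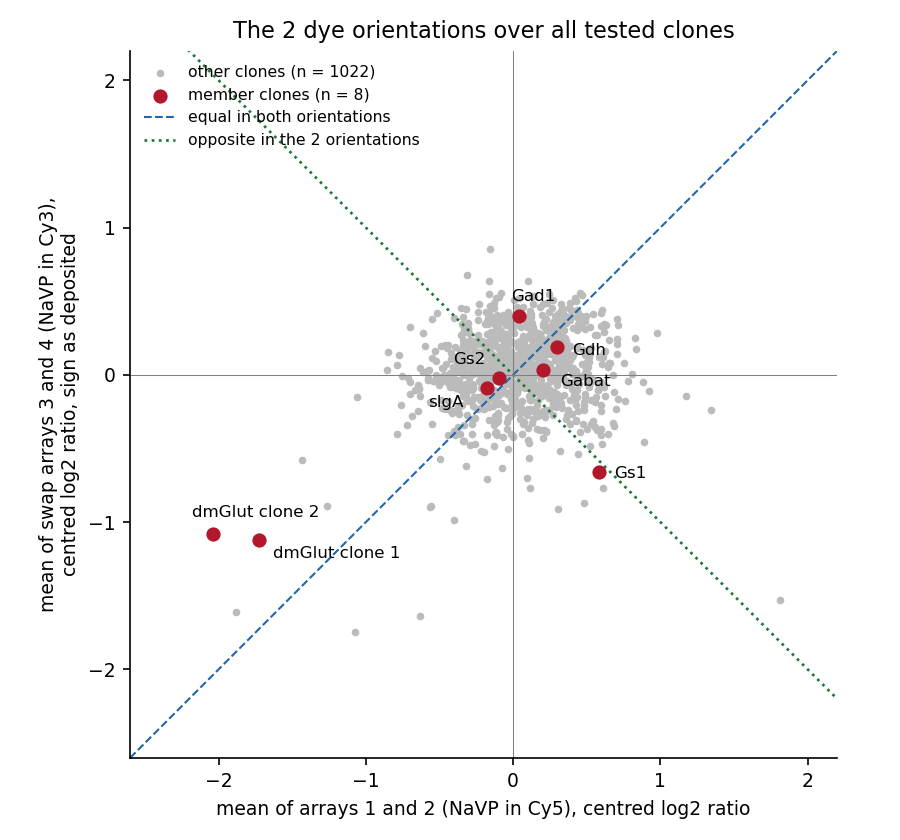
Mean centred log2 ratio over arrays 1 and 2, with NaVP in Cy5 (horizontal axis), and over swap arrays 3 and 4, with NaVP in Cy3 and the sign as deposited (vertical axis), for the 1030 clones tested; red points are the 8 member clones. Gs1 lies by the dotted line of opposite values (0.59 against -0.66), the dmGlut clones lie low in both orientations (-1.73 and -1.12 for clone 1), and the other members lie within the cloud around 0.

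The arrays of each dye orientation were also averaged apart, which needs no choice of reading. Gs1 averaged 0.59 with NaVP in Cy5 and -0.66 with NaVP in Cy3 as deposited, values of nearly equal size and opposite sign. Among the 453 clones with values on all 4 arrays, Gs1 ranked 3 by the size of the difference between orientations and 391 by the size of the mean of all 4. The dmGlut clones had the same sign in both orientations, -1.73 and -1.12 for clone 1, and -2.04 and -1.08 for clone 2. Under a single reading, therefore, either Gs1 or dmGlut has orientations that agree as a NaVP ratio, but not both. Gdh had 0.30 and 0.19, Gad1 0.040 and 0.40, Gabat 0.20 and 0.035, Gs2 -0.095 and -0.025, and slgA -0.18 and -0.089. By the size of the difference between orientations these members on 4 arrays ranked between 155 and 371 of the 453.

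**Figure D3:**
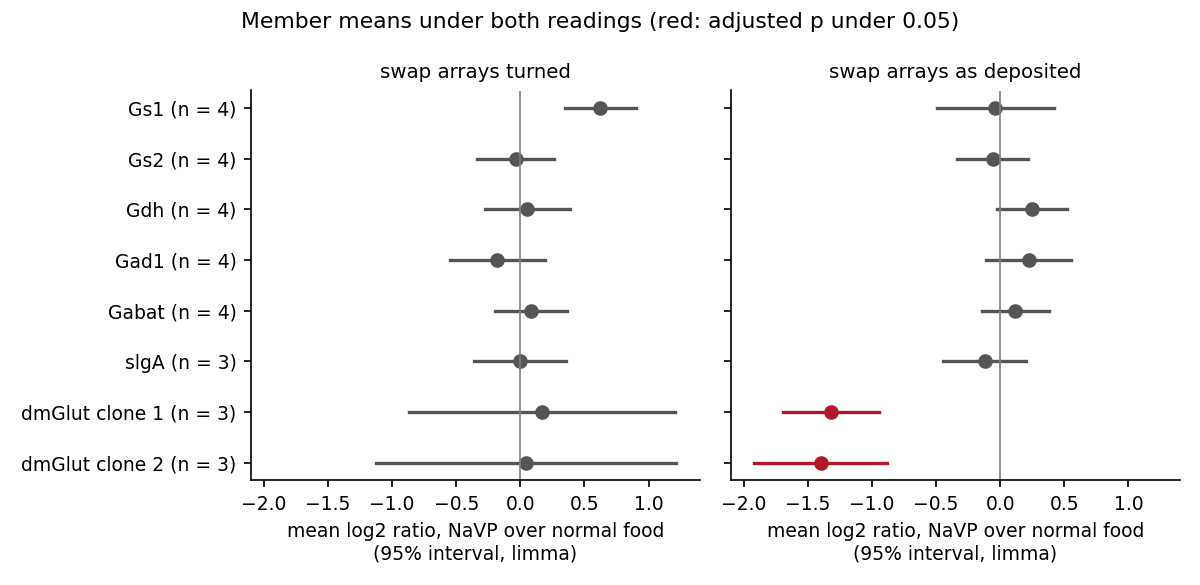
Mean log2 ratio of NaVP over normal food with its limma 95% interval (horizontal axis) for each member clone (rows, with the number of arrays), in the turned reading (left) and as deposited (right). Red marks an adjusted p under 0.05, reached by the 2 dmGlut clones as deposited; the Gs1 interval of 0.35 to 0.90 with the swap arrays turned lies above 0 without passing the adjustment over 1030 clones.

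The 8 member clones did not share a direction. In the turned reading, 5 of 8 member clones had a mean above 0, against 47.6% of all tested clones, and the median of their means was 0.048, against -0.0094 over all clones. As deposited, 3 of 8 had a mean above 0, against 60.0% of all clones, and the median was -0.048, against 0.050 over all clones. Turned, 1 member clone of 8, Gs1, kept a single sign on every array that measured it, where 23.4% of all tested clones did. As deposited, 3 of 8 did, Gdh and both dmGlut clones, where 30.6% of all clones did. These shares describe 8 clones and were not tested.

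The genes with array patterns most like those of the members were found by the root-mean-square difference of centred values, a measure that is the same under both readings. For Gs1, over 4 arrays and 223 candidate clones, they were Taldo (0.21), which encodes the pentose phosphate enzyme transaldolase, CG17896 (0.24) and CG2233 (0.24). Taldo had centred values of 0.75, 0.29, -0.39 and -0.57 on arrays 1 to 4 as deposited, with the same change of sign between orientations as Gs1. For the dmGlut clones, over arrays 2 to 4 and 232 candidates, the nearest gene was CG1750, at 0.42 from clone 1 and 0.57 from clone 2, farther than the clones were from each other (0.36). CG1750 had -1.88, -1.76 and -1.47 on those arrays and, like dmGlut, no value on array 1. Next came a clone of Obp56g, an odorant-binding protein gene, at 0.53 and 0.85, and a clone of RpS15Ab, a ribosomal protein gene, at 0.79 and 1.03. Another RpS15Ab clone was not low, with means of 0.17 over arrays 1 and 2 and 0.20 over arrays 3 and 4 as deposited.

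The other members lay close to several genes. Gabat was nearest to inaD (0.062), a scaffold of phototransduction, Vha44 (0.085), a subunit of the vacuolar proton pump, and FASN1 (0.11), a fatty acid synthase. Gdh was nearest to CG18542 (0.094), the proteasome assembly factor gene Pomp (0.10) and ringer (0.13). Gad1 was nearest to Asator (0.18), chp (0.19), which encodes a photoreceptor surface protein, and Fim (0.19). Gs2 was nearest to Cyp4d21 (0.094), another clone of Obp56g (0.10) and CG31974 (0.14), and slgA, over 3 arrays and 496 candidates, to apolpp, the lipophorin precursor gene (0.057), Vti1a (0.058) and CG10019 (0.059). Means near 0 make such small distances common, and nothing further was read from them.

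A wider list held 53 other genes of glutamate, GABA, proline and glutathione metabolism, transport and reception. It also included amino acid transporters and enzymes of the TCA cycle, with malate dehydrogenases among them. Of the 53, 27 were on the array as named clones, 9 had a value and 6 had values on at least 3 arrays. None of these 6 passed in the main test under either reading, where 0.0971% and 0.777% of all clones did, and 0 passed with the dye coefficient, where 3.11% (turned) and 5.73% (as deposited) of all clones did. At an unadjusted limma p under 0.05 stood 1 of the 6 in the turned reading, where 6.89% of all clones did, and 0 as deposited, where 14.1% did. That gene was Mdh1, the cytosolic malate dehydrogenase, with centred values of 0.37, 0.75, -0.21 and -0.083 as deposited. Its mean was 0.35 ± 0.29 with the swap arrays turned (SD, n = 4; limma adjusted p = 0.646), above 0 on all 4 arrays once turned, and 0.21 ± 0.44 as deposited (SD, n = 4; limma adjusted p = 0.592).

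P5CS, which makes pyrroline-5-carboxylate from glutamate on the way to proline, had 0.51, 0.26, -0.34 and 0.0003 as deposited. Its mean was 0.28 ± 0.21 with the swap arrays turned (SD, n = 4; limma adjusted p = 0.710) and 0.11 ± 0.36 as deposited (SD, n = 4; limma adjusted p = 0.777). P5CDh1, whose enzyme returns that intermediate to glutamate, had means of -0.035 ± 0.26 turned and 0.069 ± 0.25 as deposited (SD, n = 4 for each). Turned first and as deposited second, Gclm, the modifier subunit of the enzyme that joins glutamate to cysteine for glutathione, had -0.24 ± 0.18 and 0.015 ± 0.34 (SD, n = 3 for each). GluClalpha, the glutamate-gated chloride channel, had -0.25 ± 0.14 and 0.18 ± 0.25 (SD, n = 3 for each). The amino acid transporter gene JhI-21 had -0.093 ± 0.19 and -0.0043 ± 0.22 (SD, n = 4 for each). Over the 6 clones the median was -0.064 with the swap arrays turned, against -0.0094 over all clones, and 0.087 as deposited, against 0.050. Among genes with fewer values, the glial glutamate transporter family member Eaat2 had 0.36 on array 3 alone, Lcch3, a GABA receptor subunit gene, -0.36 on array 1 alone, and Gfat2 -1.25 on array 3 alone.

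The head was checked by marker genes, of which the arrays give ratios but no levels. Of 20 markers of photoreceptors and eye, 11 were on the array and 7 had values on at least 3 arrays, among them inaD, inaC, trpl and Arr1. Neurons had 1 of 3 such markers on the array (Csp), glia 1 of 8 (the member Gs2), muscle 2 of 7, gut 1 of 3 (Jon65Aiv) and testis and accessory gland 1 of 7 (ocn). Beside the dmGlut values as deposited, 3 of 11 clones of antenna and taste organ markers were called lower, where 0.777% of all clones were called. They were 1 clone each of Obp56g, Obp56h and Obp59a. Means over the 11 clones ran from -1.30 to 0.36, with a median of -0.10. Of the 11, 5 had a mean above 0, among them Obp56d clones at 0.17 and 0.36. Another Obp56g clone averaged -0.10 and was not called. Of 4 clones of head fat body and haemolymph markers 1 was called lower, Obp99b at -0.79 ± 0.34 (SD, n = 3; limma adjusted p = 0.0483), with a median over the 4 of -0.25. Of those 4 clones, 1 had a mean above 0 as deposited, FASN1 at 0.18. Under the turned reading, 0 clones of either marker list were called (0.0971% of all clones), and their medians were -0.011 and 0.20. The part of these cell types in the dmGlut result was not tested. Eye marker clones had a median of -0.011 in the turned reading and 0.13 as deposited, with 0 of 8 called under either reading (0.0971% and 0.777% of all clones).

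**Figure D4:**
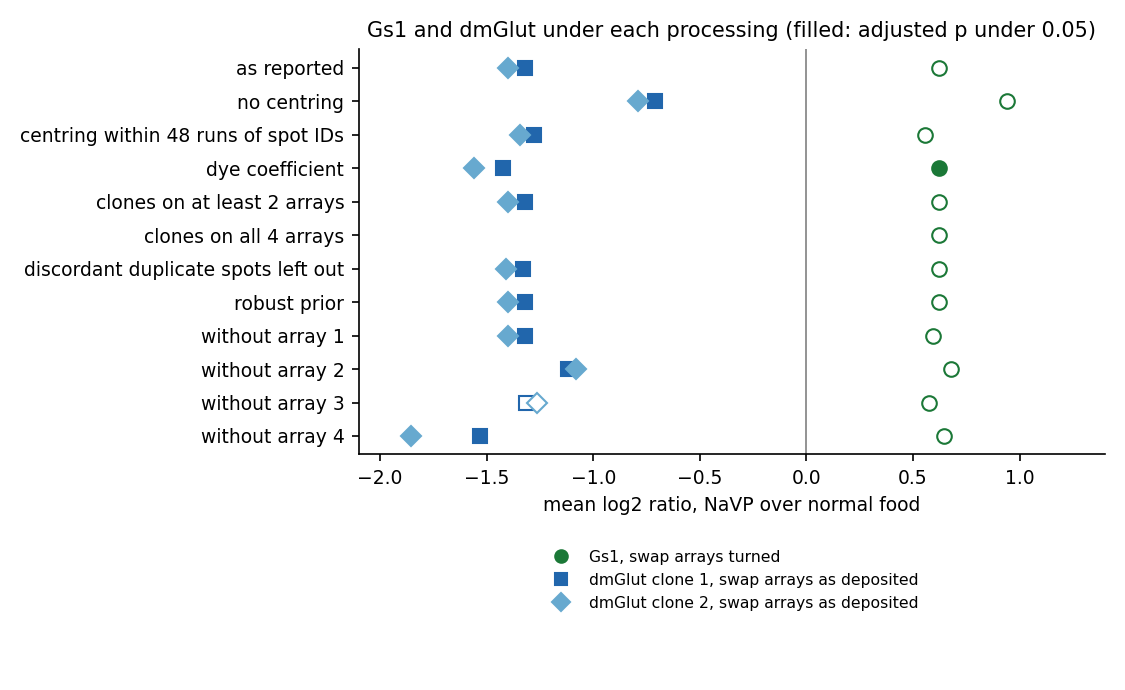
Mean log2 ratio of NaVP over normal food (horizontal axis) under each processing (rows) for Gs1 with the swap arrays turned and for both dmGlut clones as deposited; filled symbols have a limma adjusted p under 0.05. With arrays centred, the Gs1 means lie between 0.56 and 0.68 and pass in the row with the dye coefficient alone among those drawn; the dmGlut means lie between -1.85 and -1.08 and miss the threshold in the row without array 3.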

How the data were processed

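Heads of NaVP-fed and normal-food males were compared on 4 two-colour cDNA arrays. The deposited values are 1 log2 ratio per spot; per the labels the authors normalised them by ratio, and per the series' design text this was done in Acuity 4.0 after GenePix Pro 6.0, with spots filtered on saturation, flags, uniformity and signal-to-noise. Base 2 is taken from the scanner software's convention. Without intensities in the file, how bright a spot was is unknown, and the number of arrays limits precision.

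Adjacent spots carried 1 clone (7609 of 7609 annotated pairs share their gene) and were averaged. Probe symbols come from an old platform annotation, updated by gene ID (546 of 554 tested named clones) or by synonym or current symbol (8) to the RefSeq table of Release 6. Coordinates are not given, since no build is named for the clones. Centring subtracted each array's median over clones, which removes any change shared by most clones. limma 3.58.1 in R 4.3.3 (lmFit, eBayes, intercept only, two-sided, Benjamini-Hochberg over 1030 clones, threshold 0.05) was fitted for both readings. Its fit with the swap arrays turned was tried on simulated data, and the fit as deposited was not. Python 3.11.15 was used for the rest. The limma p-values set each mean against its spread between these arrays, shrunk towards a spread pooled over all clones. Prior degrees of freedom in the main fits were 7.54 (turned) and 9.87 (as deposited). Sign-flip p-values use the values of the arrays alone.

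The members, the wider list, the marker lists and the tests were chosen with earlier results of these data known. Every member is named, every gene of the wider list with values on 3 arrays, and the 3 nearest clones of each member. Alternatives were no centring, centring within 48 equal runs of spot IDs (runs with under 5 clones by the array median), a dye coefficient, other minimums of arrays (2 or 4), leaving out duplicates that differ by over 1, gene means, a robust prior and leaving out each array.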

Additional observations from a re-analysis of the deposited data

How the results depend on the processing

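Of 194 comparisons of a member mean with its value under an alternative, 166 kept direction and side of the threshold. Another 5 newly passed with the same sign (Gs1 turned with the dye coefficient and over named genes, and Gdh, Gad1 and Gabat as deposited without centring), 2 no longer passed (dmGlut as deposited without array 3), and 21 changed sign, of which 2 also passed (Gs1 and Gs2 as deposited without centring, limma adjusted p = 0.0145 and 0.0171). Fitting named genes alone was chosen after seeing the data. For part of the 166 the direction was fixed in advance. A robust prior and other minimums of arrays leave each mean as it is. So does the dye coefficient for clones on all 4 arrays, and so do gene means where a gene has a single measured clone. Without array 1 dmGlut, and without array 2 slgA, kept all their values. With the swap arrays turned, the count of 1 called clone became 0 without centring, 2 with centring in runs, 32 with the dye coefficient, 0 with clones on at least 2 arrays, 0 with clones on all 4, 5 over named genes and 0 to 14 with an array left out (limma adjusted p under 0.05). Beside the counts of 0 outside the left-out fits, 6, 96 and 46 clones stood at an unadjusted limma p under 0.05. Without array 3 and without array 4 the count was 0, with 39 and 104 at that unadjusted p, and without array 1 it was 14. The count of 0 called member clones became 1 with the dye coefficient and 1 over named genes, Gs1 in both. As deposited, the count of 8 called clones became 745 without centring, 19 with centring in runs, 59 with the dye coefficient, 24 and 1 with clones on at least 2 and on all 4 arrays, 2 with gene means, and 31, 23, 4 and 16 without arrays 1 to 4. The 2 called member clones became 7 without centring, 0 with clones on all 4 arrays (no dmGlut clone was tested there), 1 with gene means and 1 over named genes (both dmGlut clones then form 1 gene), and 0 to 2 with an array left out. The wider list had 6 calls without centring and 0 under the other alternatives. By construction, means without centring keep the offset of each array. They changed sign for Gs1 (0.67), Gs2 (0.65) and slgA (0.48) as deposited, and for Gs2 (0.28), Gad1 (0.14) and slgA (0.074) turned. Centring in runs changed the sign of Gs2 (0.071) and slgA (0.057) as deposited. The dye coefficient did so for dmGlut clone 1 (-0.30) and clone 2 (-0.48) turned, as it weights the orientations equally. Leaving out an array changed the sign of some member means in part of the left-out fits. Over all left-out fits the means of these clones ranged from -0.29 to 0.20 for Gs1 as deposited. For Gs2 they ranged from -0.10 to 0.075 turned and -0.14 to 0.042 as deposited. Turned, they ranged from -0.10 to 0.16 for Gdh, -0.15 to 0.089 for slgA, -0.41 to 1.12 for dmGlut clone 1 and -0.77 to 1.08 for clone 2. Where no construction is named, the cause was not tested. No paired analysis was possible because each array already holds both groups and all 4 ratios form a single group.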
